A study of Mus musculus with 27 samples.

Results

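The regions described here are the EGR2 CUT&Tag peaks of tumour macrophages that were listed in mice with and in mice without myeloid deletion of Ogt. Of the 5408 peaks in the WT list, 618 overlapped a peak of the KO list by at least 1 bp, after a stretch of very high signal on chromosome 2 had been left out. They are called shared peaks, and each is given by its WT interval. They made up 11.4% of the WT peaks outside that stretch, and together with the WT-only peaks (4787) and KO-only peaks (4380) they come from 10403 peaks in both lists. The deposited lists themselves chose the members, so the number of shared peaks, their overlap and their scores are descriptions and carry no test.

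WT mice carried floxed Ogt, and KO mice carried floxed Ogt together with Lyz2-cre. Both bore MC38 tumours, which grow from a mouse colon adenocarcinoma line, and tumour-associated macrophages were studied; the labels do not give the age of the mice or say which animals were pooled. Lyz2-cre is inserted at the lysozyme 2 gene and acts across the myeloid lineage, neutrophils and monocytes included, so the deletion is not particular to macrophages. EGR2 CUT&Tag had 3 libraries per genotype but 1 list of peaks per genotype, and ATAC-seq had 3 libraries per genotype but 1 merged list of 30189 regions. With 1 list per genotype no spread between animals can be computed for any peak. The extraction protocol given for the CUT&Tag samples describes formaldehyde fixation and sonication of nuclei, which are steps of chromatin immunoprecipitation.

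EGR2 is a zinc-finger transcription factor of the early growth response family that binds GC-rich DNA and can be held back by the NAB corepressors. In macrophages it is known as a factor of the alternatively activated state. OGT is the enzyme that places O-GlcNAc on nuclear and cytoplasmic proteins. CUT&Tag tethers a transposase to an antibody so that adaptors are inserted near the bound protein, and ATAC-seq uses a free transposase that inserts into open chromatin. Assemblies hold too few copies of some repeats, mostly beside centromeres and telomeres, and reads from the missing copies pile up on the copies that are present; such stretches are often removed from peak lists for that reason.

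Macrophage RNA gives the level of the Egr2 transcript, but not the amount, modification or binding of EGR2 protein. Total counts ran from 7032540 to 32406170 per library, and 4874 of 12939 tested genes differed between KO and WT, which is 37.7% of them (edgeR quasi-likelihood test, adjusted p below 0.05). Ogt was at 60.9, 58.7 and 49.2 CPM (counts scaled to a common library size) in the WT libraries and at 31.96, 39.13 and 33.04 CPM in the KO libraries. The count covers the whole gene, deleted exons or not. The KO values all lay below the WT values (log2 fold change -0.72, SE 0.0953, edgeR adjusted p = 2.978e-09). Lyz2, the gene at which the Cre is inserted, had a mean of 3882 CPM in WT and 84.0 CPM in KO (log2 fold change -5.53, edgeR adjusted p = 5.802e-94). KO and WT thus differed at the Cre locus as well as in Ogt, and which of the called genes go with either was not tested. Egr2 was at 268, 255 and 273 CPM in WT and at 138, 155 and 135 CPM in KO, again without overlap. It fell by 0.90 on the log2 scale (SE 0.0449, edgeR adjusted p = 9.478e-28). Of its relatives, Egr1 (log2 fold change -0.42, edgeR adjusted p = 1.965e-19) and Egr3 (log2 fold change -0.76, edgeR adjusted p = 7.033e-05) also fell, while Egr4 was too low to be tested. The corepressor genes Nab1 and Nab2 did not pass the test (log2 fold changes 0.08 and 0.12, edgeR adjusted p = 0.2727 and 0.2035). All 8 macrophage markers were above 1 CPM in all 6 libraries. Their summed level ran from 7996 to 8213 CPM in WT and from 7971 to 8069 CPM in KO. The summed T and NK cell markers ran from 135 to 146 CPM in WT and from 248 to 260 CPM in KO, and the summed dendritic cell markers from 407 to 430 CPM in WT and from 229 to 233 CPM in KO. The part of these other cells in the EGR2 lists was not tested.

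The genome build of the lists was examined before anything else, because the submitters' processing notes name mm10. Open chromatin gathers at gene starts, so ATAC regions of mm10 should lie at the starts of mm10 gene models. Of the 30189 ATAC regions, 6.51% lay within 1 kb of 1 of 46833 mm10 gene starts. When the regions and the gene starts of a chromosome were displaced against each other by the 1 distance that suited it best, 20.7% did. The sign of a distance separates opposite directions of displacement and is not meant for converting coordinates to mm10. The best distance was more than 1 kb from 0 on 19 of 20 chromosomes and ranged from -956.5 kb on the X chromosome to 726.5 kb on chromosome 8. Chromosome 4 was the exception, with -0.5 kb over the whole chromosome. Its windows of 10 Mb from 60 Mb on nevertheless had best distances that ranged from -273 kb to 84.5 kb. Within windows of 10 Mb the pattern was a staircase: 192 of 201 windows (95.5%) had a best distance over 1 kb from 0, and the share at gene starts rose from 6.42% to 34.7% of 28241 regions when each window had its own distance. The best distances were picked from the same counts, so the rise in part follows from picking; over all distances tried, the median share per chromosome was between 2.60% and 7.46%.

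**Figure D1:**
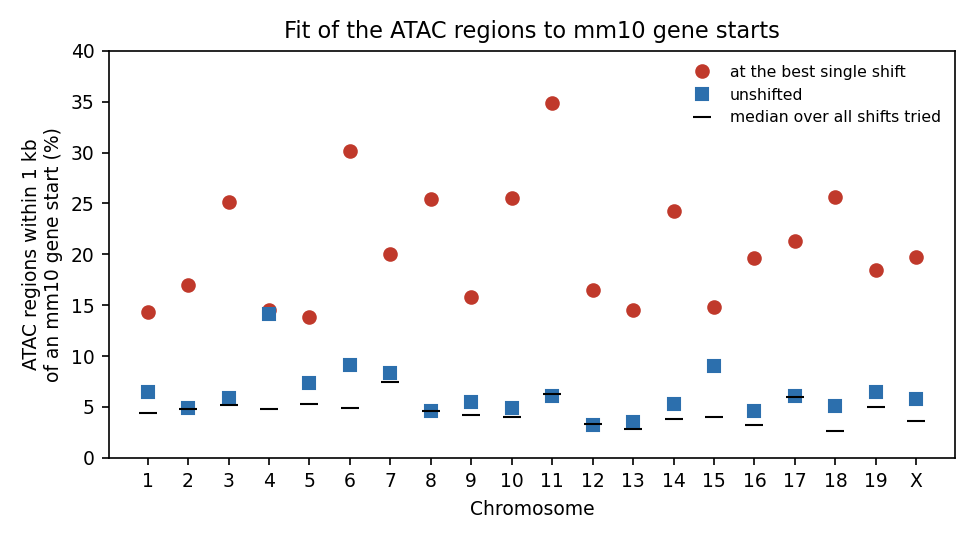
Share of ATAC regions within 1 kb of an mm10 gene start on each chromosome (percent of regions), unshifted, at the best single shift and as the median over all shifts. The unshifted share lies well below the best share except on chromosome 4, where they nearly coincide, and over the whole list the unshifted and best shares were 6.51% and 20.7%.

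The share rose likewise for peaks of the EGR2 WT list, from 5.57% unshifted to 12.6% with the distances taken from the ATAC list. For the KO list it went from 5.09% to 6.55% only. That value lies within the range of the median ATAC shares per chromosome over all distances (2.60% to 7.46%), so gene starts alone cannot place the KO list. The shared peaks went from 4.37% (27 peaks) to 9.06% (56 peaks). In the window of chromosome 2 from 90 to 100 Mb, which holds the excluded stretch, the best distance was -170 kb, with 43 of 105 ATAC regions at a gene start against 6 unshifted. The coordinates printed here are therefore those of the deposited lists, and those of the ATAC and WT lists were in a build that was not mm10. The KO list is taken to be in the same build, which its gene starts do not settle. Whether the coordinates are those of GRCm39 was not tested, since no sequence or gene model of that build was used here. For the same reason no gene is assigned to a peak, no repeat content or motif is given, and no sequence is shown.

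The excluded stretch dominated both lists. Its 3 WT peaks lay between 98493245 and 98497322 of chromosome 2 and held 66.3% of the summed score of the WT list (658506 of 992722). Its 3 KO peaks lay in largely the same place, between 98492699 and 98496706, and held 58.1% of the KO sum (575681 of 991547). The score is the authors' own value per peak, and each list has nearly the same sum. None of these 3 WT peaks overlapped a KO peak, so the overlap rule alone would also have left them out, and all 3 overlapped an ATAC region.

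The score has a coarse grain that sets how it can be read. Among WT scores below 500, all 5375 were whole multiples of 1 of 3 step sizes (1.953, 1.898 or 1.811, within 0.001 of a step). Among KO scores below 500, all 4959 were whole multiples of 2.334, 2.138 or 2.085. The number of step sizes equals the number of libraries, but which step belongs to which library was not tested. In steps, the shared peaks had a median of 20 in WT and their KO partners a median of 18, against 15 for WT-only and 14 for KO-only peaks. The lowest shared peak was 8 steps high. The 3 WT step sizes contributed 234, 201 and 183 shared peaks, so none of them supplied most of the set.

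Shared peaks were on the whole somewhat higher than the rest of the list, with a very long upper tail. Their WT score had a median of 37.1 (quartiles 28.5 and 52.7, lowest 14.5, highest 37065), against a median of 29.0 for WT-only peaks. Their KO score had a median of 39.7 (16.7 to 65140), against 31.3 for KO-only peaks. The 618 shared peaks held 47.7% of the WT score outside the excluded stretch, and the 593 KO peaks they overlapped best held 56.8% of the KO score there. Most of this came from a handful of regions, since the 3 highest shared peaks held 57.0% and the 10 highest 70.9% of the score of all shared peaks.

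The share of WT peaks with a KO partner rose with the WT score. It was 3.91% of the 512 peaks scoring under 20, 6.03% from 20 to 25, 8.05% from 25 to 30 and 10.6% from 30 to 40. It then went to 20.4% of the 702 peaks from 40 to 60, to 31.5% from 60 to 100 and to 67.0% of the 94 peaks above 100. Even so, 354 of the 618 shared peaks scored at most 40, because most peaks of the list are low.

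**Figure D2:**
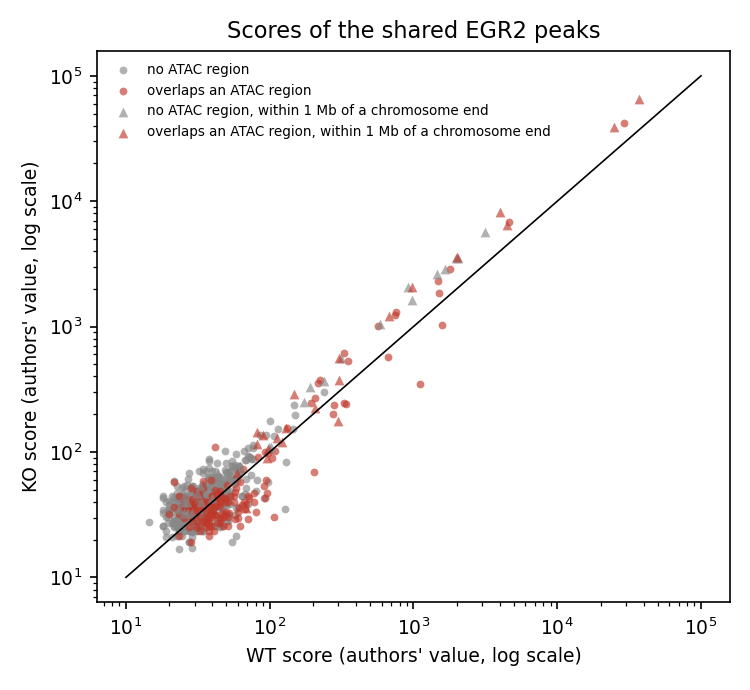
WT score against KO score of the 618 shared peaks (the authors' values, log axes; line of equal scores), by overlap with an ATAC region and by place within 1 Mb of a chromosome end. The 10 highest peaks lie above the line, and the quartiles of the WT score are 28.5 and 52.7.

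Peaks in both lists are 501 bp wide, and the shared pairs were rarely in register. The overlap had a median of 290.5 bp (quartiles 161 and 395, range 1 to 501), and the centres lay a median of 210.5 bp apart. An overlap of at least 250 bp was reached by 363 peaks (58.7%), 74 peaks (12.0%) overlapped by at least 450 bp, and 45 peaks (7.28%) by less than 50 bp. For peaks scoring above 100 the centres were closer, at a median of 139 bp. Some partners were not unique: 50 shared peaks had the same KO partner as another shared peak, and 20 overlapped 2 KO peaks.

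The edge of the rule fell within a smooth decline of distances. Centres of WT and KO peaks lay under 100 bp apart for 146 WT peaks, 100 to 200 bp apart for 146, 200 to 300 bp apart for 130, 300 to 400 bp apart for 101 and 400 to 500 bp apart for 94. Another 78 lay 500 to 600 bp apart, of which 1 was still shared, and 160 lay 600 to 1000 bp apart. From 2000 to 5000 bp the count was between 71 and 94 per 1000 bp. Just outside the rule there were therefore more WT-only peaks near a KO peak than farther out, and 418 WT-only peaks (8.73%) had a KO centre within 2000 bp.

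**Figure D3:**
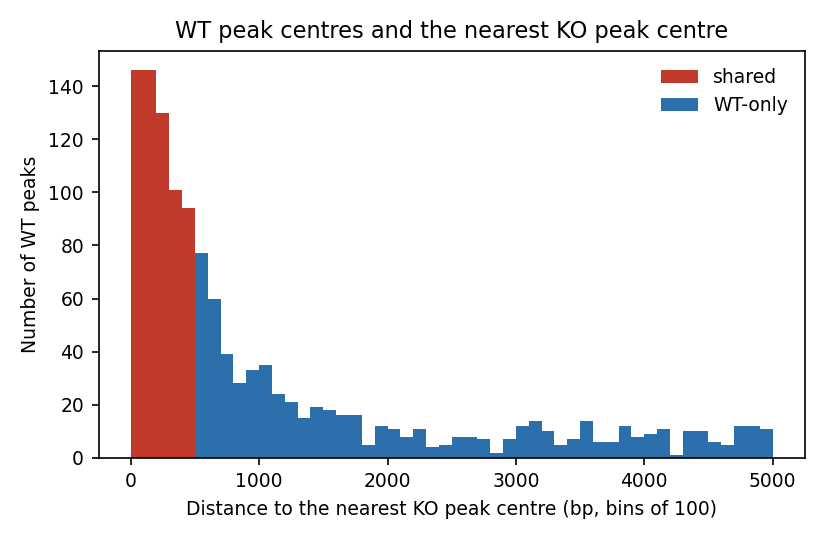
Number of WT peaks by the distance from their centre to the nearest KO peak centre (bp, bins of 100), for shared and WT-only peaks. The counts fall from 146 in the nearest bin to 78 between 500 and 600 bp with no break where the overlap rule ends.

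None of the peaks closest to the edge scored above 100. Just inside were a peak on chromosome 17 (90900342 to 90900842, 1 bp of overlap, WT score 32.6, KO score 28.0), a peak on chromosome 1 (133059193 to 133059693, 2 bp, scores 44.9 and 27.1) and a peak on chromosome 6 (108503683 to 108504183, 4 bp, scores 25.4 and 23.3). Just outside, with 3 or 4 bp between the edges, were a peak on chromosome 2 (56689765 to 56690265, WT score 15.2, nearest KO score 30.3) and a peak on chromosome 9 (103021061 to 103021561, scores 33.2 and 52.1). A peak on chromosome 13 (12829442 to 12829942, scores 23.5 and 36.4) was also just outside.

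The highest shared peaks sat mostly at the ends of chromosomes. The highest lay on chromosome 9 at 124256386 to 124256886, with a score of 37065 in WT and 65140 in KO and an overlap of 366 bp. It is 2487 bp from the last position that any of the 3 lists holds on that chromosome. The next highest lay inside chromosome 6 at 103625703 to 103626203, with scores of 29012 and 42228. The next, at 3159744 to 3160244 near the start of chromosome 12, scored 24772 and 39178 and overlapped the ATAC region with a score of 31701. After these 3, the scores dropped by more than 5-fold.

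A peak inside chromosome 8 (84483121 to 84483621) scored 4619 in WT and 6778 in KO. The 2 peaks on chromosome 14 lay at its opposite ends. That at 3051740 to 3052240 scored 4447 and 6467 with an overlap of 495 bp, so the lists were nearly in register there. That at 125038959 to 125039459 scored 4007 and 8244. The remaining 4 of the 10 highest were all last peaks of their chromosome or within 1 kb of it.

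A peak at 97907965 to 97908465 of chromosome 16 scored 3139 and 5730 but overlapped its KO partner by 22 bp only. On chromosome 2, peaks at 181653908 to 181654408 and 181654428 to 181654928 scored 2046 and 1978, and both overlapped the same KO peak of 3531. On chromosome 7, a peak at 144894598 to 144895098 scored 1995 and 3595. Of these 10 peaks, 8 lay within 1 Mb of a chromosome end, 7 overlapped an ATAC region and 10 had the higher score in KO. The order of WT and KO held for all 10 under each of the 4 scalings of the lists that were tried.

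Over the whole set, a place near a chromosome end was more common among shared peaks, and 28 of the 49 such peaks scored above 100. Of the 618, 49 lay within 1 Mb of the first or last position held by the lists (25 at the first, 24 at the last), which is 7.93% (exact binomial 95% interval 5.92 to 10.3%). The same was 2.11% for WT-only peaks (1.72 to 2.56%), 2.85% for KO-only peaks (2.38 to 3.39%) and 2.82% for ATAC regions. These intervals cover counting error only and treat peaks as independent, which neighbouring peaks are not. Such peaks were found on 18 of 20 chromosomes.

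Height separated this further. Among shared peaks scoring above 100, 28 of 63 (44.4%, interval 31.9 to 57.5%) lay within 1 Mb of an end. Of the WT-only peaks above 100 it was 6 of 31 (19.4%, 7.45 to 37.5%), of the KO-only peaks 5 of 41 (12.2%, 4.08 to 26.2%), and of ATAC regions above 100 it was 58 of 443 (13.1%). The intervals of the shared and the WT-only peaks overlap. Below that height the shared share was 21 of 555 (3.78%, 2.36 to 5.73%) against 95 of 4756 WT-only peaks (1.62 to 2.44%), 2.77% of KO-only peaks (2.30 to 3.30%) and 2.67% of ATAC regions. The shared interval overlaps both of the other EGR2 intervals there. Within 5 kb of the first or last position there were 20 shared peaks on 13 chromosomes, 17 of them scoring above 100, against 2 WT-only and 11 KO-only peaks. The peaks of the lists themselves set these positions, and some shared peaks are the last of their chromosome, as at 181654428 on chromosome 2. Such peaks are near an end by definition, so these counts are a description only. Repeat content at these ends was not analysed here.

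The KO score was higher than the WT score in 404 of the 618 pairs (65.4%), with a median log2 ratio of 0.21 (quartiles -0.19 and 0.54, range -1.86 to 1.44). This direction is not a property of the peaks alone, because it turned with the scaling of the lists. With each list divided by its sum outside the excluded stretch the median was -0.11, with 252 pairs higher in KO. Divided by list medians it was 0.07. In whole steps it was 0, with 283 pairs higher, 35 equal and 300 lower. Over the 9 pairings of WT and KO step sizes, the median of the deposited ratio ran from 0.11 to 0.35. The scores of 420 pairs (68.0%) were within 1.5-fold of each other, 24 were at least 2-fold higher in KO and 12 at least 2-fold lower.

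Differences between kinds of shared peak are less exposed to the scaling, since a change of scale by list sums or medians moves all of them alike. Peaks above 100 within 1 Mb of a chromosome end had a median log2 ratio of 0.79 (n = 28, quartiles 0.48 and 0.85), and 26 of them were higher in KO. With sums outside the excluded stretch this was 0.48, with 21 higher. Peaks above 100 elsewhere had a median of 0.34 (n = 35, range -1.86 to 0.91), or 0.02 on that other scale. Peaks of at most 100 elsewhere had a median of 0.18 (n = 534), or -0.13 on the other scale. Peaks of at most 100 near an end had a median of 0.36 (n = 21), or 0.05 on the other scale. The 28 high peaks at chromosome ends thus had the highest median of these 4 groups, and the 10 highest peaks, most of which are among them, had a median of 0.80.

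**Figure D4:**
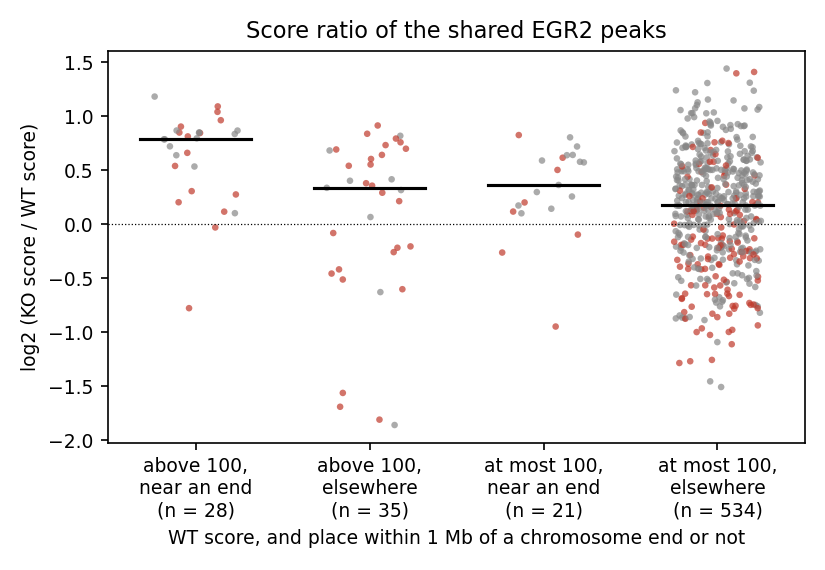
log2 of KO score over WT score (the authors' values) for shared peaks split by WT score and by place within 1 Mb of a chromosome end, 1 point per peak. Peaks above 100 near an end centre on 0.79, those above 100 elsewhere on 0.34 and those of at most 100 elsewhere on 0.18; dividing each list by its sum outside the excluded stretch lowers every point by 0.32 and turns the last median to -0.13.

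Shared peaks that overlapped an ATAC region had a median log2 ratio of -0.13 (n = 184), and those that did not had 0.29 (n = 434). On the scale of sums outside the excluded stretch these were -0.44 and -0.03. The accessible peaks had the lower ratio under all 4 scalings, and the sign for the other peaks depended on the scaling. The accessible share itself rose with the WT score, from 5.00% under 20 to 48.3% from 60 to 100. Up to a score of 100 the ratio of accessible and other peaks was not compared at like WT score. Among peaks above 100 away from chromosome ends the medians were close, at 0.32 with an ATAC region (n = 26) and 0.34 without (n = 9). Among peaks above 100, the 15 with a lower KO score included 13 that overlapped an ATAC region and 2 near a chromosome end, whereas the 48 with a higher KO score included 28 and 26. Sorting by WT score also moves the ratio, since that score is its denominator: the median went from 0.79 for WT scores under 20 to -0.15 for scores of 60 to 100. Above 100 it was 0.54, with 48 of 63 pairs higher in KO, so the fall with the WT score did not go on.

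The extremes of the ratio were spread over a wide range of heights. The largest falls were at 110412283 to 110412783 of chromosome 12, with a score of 127 in WT and 35.0 in KO but an overlap of 30 bp, and at 31148958 to 31149458 of chromosome 3, with 106 and 30.3 and an overlap of 374 bp. The third, at 24652631 to 24653131 of chromosome 1, scored 1114 in WT and 345 in KO with an overlap of 77 bp. In 2 of these 3 the lists thus barely met. The largest rises were in low peaks, at 147009695 to 147010195 of chromosome 4 (21.5 and 58.4), at 133050740 to 133051240 of the X chromosome (21.7 and 57.7) and at 74958197 to 74958697 of chromosome 15 (41.6 and 110). In steps, the chromosome 4 peak went from 11 to 25 and the X peak from 12 to 27. Over all 618 pairs the ranks of the WT and KO scores had a Spearman correlation of 0.60, given as a description, since both scores were part of the choice of members.

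Accessibility comes from another assay than the one the rule used. An ATAC region was overlapped by 184 of the 618 shared peaks (29.8%, exact binomial 95% interval 26.2 to 33.6%). It was overlapped by 1264 of 4787 WT-only peaks (26.4%, 25.2 to 27.7%) and by 399 of 4380 KO-only peaks (9.11%, 8.27 to 10.0%). Shared and WT-only peaks thus had intervals that overlap, and both lay well above KO-only peaks. The KO peaks that overlapped a WT peak were accessible in 178 of 612 cases (29.1%). The remaining 434 shared peaks ranged widely in their distance to the centre of the nearest ATAC region, from 503 bp to 2492238 bp, with a median of 67954 bp and quartiles of 10247 and 242937 bp. The median was 35710 bp for WT-only and 50511 bp for KO-only peaks outside ATAC regions, with quartiles of 3032 and 223312 bp and of 7894 and 196591 bp.

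Because shared peaks are higher, peaks were also compared within bands of WT score. Up to a score of 40 the accessible percent was slightly lower in shared than in WT-only peaks, with 5.00% against 8.94% under 20, 9.52% against 12.3% from 20 to 25, 15.5% against 20.1% from 25 to 30 and 29.2% against 34.7% from 30 to 40. The shared intervals held the WT-only value in each of these 4 bands. From 40 to 60 the gap was wide, at 30.1% of 143 shared peaks (22.7 to 38.3%) against 52.2% of 559 WT-only peaks (48.0 to 56.4%), and the intervals did not meet. From 60 to 100 the values were 48.3% and 51.6%. Above 100 the order turned, with 65.1% of 63 shared peaks (52.0 to 76.7%) against 38.7% of 31 WT-only peaks (21.9 to 57.8%), and here the intervals overlap. The ATAC regions at shared peaks above 100 were high themselves, with median ATAC scores of 237 near chromosome ends and 170 elsewhere. At shared peaks of at most 100 these medians were 30.3 and 31.2, and over all ATAC regions the median was 15.3. Whether reads from missing repeat copies pile up in the ATAC list as well was not tested, so overlap at these high peaks need not mean open chromatin.

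**Figure D5:**
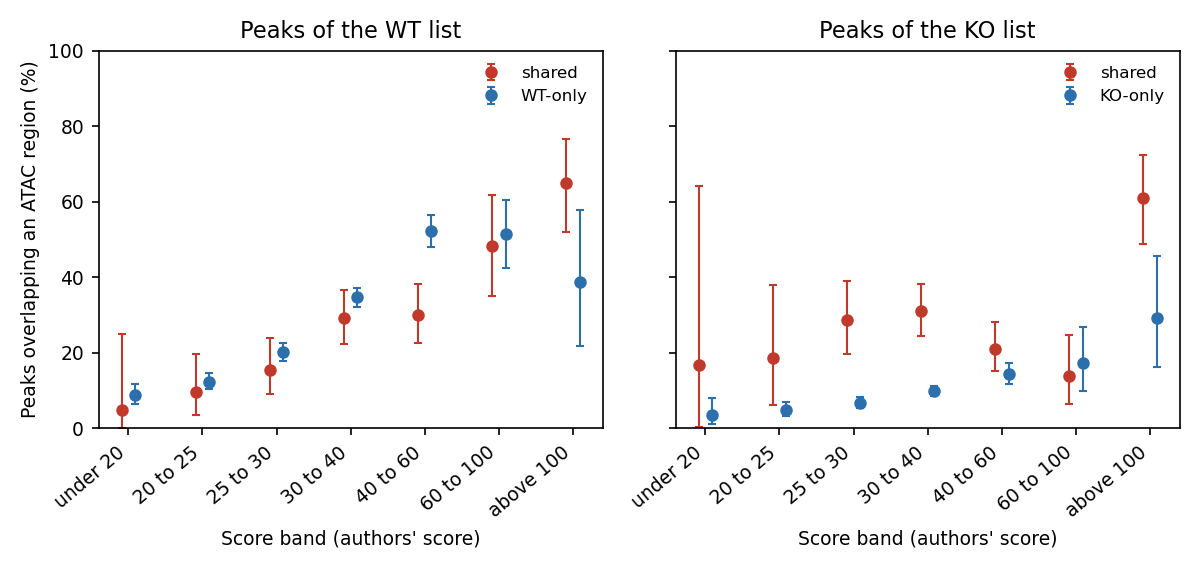
Percent of peaks that overlap an ATAC region by score band, for shared against WT-only peaks (WT score) and shared against KO-only peaks (KO score), with exact binomial 95% intervals. In the WT panel shared peaks lie below WT-only peaks from 40 to 60 (30.1% and 52.2%) and above them over 100; in the KO panel they dip between 40 and 100 and rise to 61.1% above 100.

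Set against KO-only peaks by their KO score, the shared peaks had the higher accessible percent in 6 of 7 bands. From 25 to 30 the share was 28.6% of 91 shared against 6.62% of 1193 KO-only peaks, and from 30 to 40 it was 31.1% of 190 against 9.83% of 1689. From 40 to 60 it was 21.1% against 14.5%, and from 60 to 100 it was 13.8% of 65 (6.53 to 24.7%) against 17.2% of 87 (9.98 to 26.8%). Above 100 it was 61.1% of 72 (48.9 to 72.4%) against 29.3% of 41 (16.1 to 45.5%), and these intervals did not meet. Accessibility of shared peaks therefore did not rise steadily with the KO score.

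The accessible share of shared peaks differed little between step sizes of the score or with the length of the overlap. It was 30.8%, 28.4% and 30.1% for shared peaks on the 3 WT step sizes, and 27.6%, 26.1% and 25.2% for WT-only peaks. It was 109 of 363 peaks for overlaps of at least 250 bp and 75 of 255 (29.4%) for shorter ones. Near chromosome ends 23 of 49 shared peaks were accessible (46.9%, 32.5 to 61.7%), against 161 of 569 elsewhere (28.3%, 24.6 to 32.2%). For WT-only peaks the values were 38.6% near ends and 26.1% elsewhere. The order turned with height in shared peaks: above 100, 15 of 28 end peaks (53.6%) and 26 of 35 others (74.3%) were accessible, and at most 100, 8 of 21 (38.1%) and 135 of 534 (25.3%).

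Each region of the merged ATAC list has a name that begins with either TAM-WT or TAM-KO. Of the 184 accessible shared peaks, 127 (69.0%, 61.8 to 75.6%) overlapped best with a region named for KO. Over the whole ATAC list 12713 of 30189 names were KO (42.1%), and the share was 44.2% at accessible WT-only peaks and 53.9% at accessible KO-only peaks. Above a score of 40 it was 69.6% for shared (60.2 to 78.0%), 44.4% for WT-only and 60.3% for KO-only peaks (51.0 to 69.1%). At or below 40 it was 68.1% (56.0 to 78.6%), 44.1% and 51.1% (45.0 to 57.1%). The shared and KO-only intervals overlap in both. How a merged region received its name is not given in the sources used here, so a KO name does not show that the region was more open in KO. The ATAC score had a median of 37.5 at shared peaks (4.57 to 31701), 34.0 at WT-only peaks, 24.6 at KO-only peaks and 15.3 over all regions. WT score and ATAC score had a Spearman correlation of 0.43 over the 184 accessible shared peaks and 0.32 over the 1264 accessible WT-only peaks, as descriptions over peaks of the same lists.

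Dense stretches of peaks were looked for as chains of at least 3 WT peaks whose centres lay at most 2 kb apart. The list held a single such chain, the 3 peaks of the excluded part of chromosome 2, so 0 of the 618 shared peaks lay in one. Close pairs were found, with 87 shared peaks (14.1%) that had another WT peak within 2 kb. Of these, 50 had the same KO partner as another shared peak, as on chromosome 2 at 181653908 and 181654428, and such peaks are paired by the overlap rule itself. Among the 568 shared peaks with a KO partner of their own, 37 (6.51%) were paired, against 319 WT-only peaks (6.66%), and 221 KO-only peaks (5.05%) had another KO peak that near. The paired shared peaks were accessible in 32.2% of cases and the unpaired ones in 29.4%.

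Shared peaks were found on all 20 chromosomes that were examined, from 11 on chromosome 19 to 53 on chromosome 4. As a share of the WT peaks of the chromosome they ran from 7.40% on chromosome 2 to 21.1% on chromosome 3 (35 of 166). Chromosome 16 was next, with 19.2% (25 of 130). Accessible shared peaks were most numerous on chromosome 11 (19 of 41) and fewest on chromosomes 18 and 19 (2 of 16 and 2 of 11), and 5 of 32 were accessible on chromosome 1.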

How the data were processed

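EGR2 CUT&Tag libraries (3 per genotype) stand behind 2 peak lists, and ATAC-seq behind 1 merged list. The deposited lists hold a score per peak; how the authors pooled the libraries and called the peaks is not given in the sources used here, and the submitters' processing notes name mm10. In each EGR2 list 4 of the serial numbers in the peak names were absent. RNA counts per gene were deposited by the authors, made with featureCounts 2.0.6 on GENCODE vM10, per the file headers. Overlaps (at least 1 bp), distances and exact binomial (Clopper-Pearson) 95% intervals were computed in Python 3.11.15 with pandas 2.3.3 and scipy 1.17.1, and tested on simulated peaks. RNA was tested with edgeR 4.0.16 in R 4.3.3 (TMM, filterByExpr, 2-sided, Benjamini-Hochberg over all genes), without a replicate block; of 48440 gene identifiers 99.2% had a symbol. Whether the libraries came from separate animals is not in the labels; the spread behind the p-values may be technical. Best shifts were sought within 1.5 Mb in steps of 500 bp, in windows with at least 50 regions. A WT peak's KO score is that of the KO peak with the longest overlap. Named peaks are the 10 highest and the 3 with the lowest and highest score ratio, with those at the edge of the rule. Members, lists and rules were chosen with earlier results of these data known. The EGR2 ChIP, H3K27ac, H3K4me1 and single cell data were not used here.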

Additional observations from a re-analysis of the deposited data

How the results depend on the processing

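The number of shared peaks fell from 618 to 363 with an overlap of at least 250 bp and to 365 among peaks at or above the median score of their list. The accessible share of 29.8% became 18.6% with an ATAC overlap of at least 250 bp, 34.0% for peaks at or above the median score and 25.8% without peaks above 100. The median log2 score ratio of 0.21 became -0.11 with sums outside the excluded stretch, 0.074 with list medians and 0 in whole steps; all 3 were tried after the data had been seen, as were the tests of chromosome ends and the removal of peaks above 100. The share in dense stretches went from 0 to 1.94% with a gap of 5 kb (12 peaks). The share near chromosome ends of 7.93% was 3.78% without peaks above 100 and 18.8% with ends of 5 Mb, where WT-only peaks had 13.3%. In RNA, 4874 genes were called, 3991 to 4587 with 1 library left out, 4869 with RLE scaling, 4792 without the filter and 4403 with DESeq2. With the replicate number as a block 4691 were called. Same-numbered libraries deviated together with correlations of -0.005, 0.002 and 0.011, and 1 of 3 correlated best with its own number. So few libraries cannot show whether those with the same number shared a batch. The log2 fold change of Egr2 ran from -0.95 to -0.86 and that of Ogt from -0.80 to -0.65. Analyses of gene starts, repeats, motifs and RNA of genes with a peak, with all their alternatives, were not run, because no genome or gene models of the lists' build were used. The missing replicate scores and the grain of the score limit all comparisons of peaks between genotypes.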
